A study of Mus musculus with 12 samples.

Results

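The circadian clock genes described here are Per1, Per2, Per3, Arntl, Dbp, Nr1d1, Nr1d2, Tef, Cry1 and Ciart, chosen by name as parts of the clock and matched by gene symbol to the Ensembl identifiers of the count tables. They are 10 of the 46078 genes counted, and all 10 were among the 15823 genes with enough counts to be tested. RNA-seq libraries were made from epithelium scraped from the proximal ileum of C57BL/6 males, with no genetic alteration given, treated from 28 to 56 days of age. Mice received an oral gavage at intervals of 4 days over 28 days, either of sesame oil alone (vehicle) or of TCDD (a dioxin and persistent ligand of the aryl hydrocarbon receptor, AhR) at 3, 10 or 30 µg/kg, and each of the 4 groups had 3 libraries. The study describes each group as separate mice, as many as there are libraries here, but the labels do not tie a library to its animal, so the tests measure the spread between libraries. Replicates carry numbers that only name them, and gene positions are given on GRCm38.

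The circadian clock is a feedback loop of transcription that runs in nearly every cell. ARNTL (also called BMAL1) pairs with CLOCK or NPAS2 and switches on the Per, Cry, Nr1d, Dbp, Tef and Ciart genes through E-box sequences. The PER, CRY and CIART proteins then repress that pair, and the NR1D proteins repress Arntl itself, so that Arntl is high when Dbp and the Per genes are low over the day. In the intestine this loop is known to follow the light cycle and the time of feeding, and it sets daily rhythms of nutrient transporters. AhR belongs to the same family of PAS-domain proteins as ARNTL, CLOCK and the PER proteins.

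The regulatory sequences of the loop are shown first, because the genes below are described by which of them rise and fall together. RefSeq promoter windows (GRCm38.p6, 250 bases before to 50 bases after a start site) were at hand for 9 of the 10 genes, all but Per2. The E-box CACGTG was present on either strand in the windows of 8.09% of the 27025 genes that have any, and in windows of 4 of the 9 clock genes: Per1, Tef, Cry1 and Ciart. By window, which is the unit where a gene has several start sites, it was in 7.15% of 32851. In the 4 lines that follow, capitals mark the E-box.
Per1: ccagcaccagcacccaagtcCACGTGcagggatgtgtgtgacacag
Tef: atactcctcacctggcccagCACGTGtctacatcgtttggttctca
Cry1: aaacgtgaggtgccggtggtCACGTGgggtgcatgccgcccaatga
Ciart: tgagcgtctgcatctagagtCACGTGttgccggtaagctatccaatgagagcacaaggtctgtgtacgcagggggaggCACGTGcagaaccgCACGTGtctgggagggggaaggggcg
The Per1 run (chr11:69098763-69098808, forward strand) and the Tef run (chr15:81811256-81811301, forward strand) lie before start sites inside their genes, in sequence that GENCODE M21 marks as intronic. The Cry1 run (chr10:85185089-85185134, reverse strand) lies outside the gene as GENCODE draws it, and all but 5 bases of the Ciart run (chr3:95882247-95882364, reverse strand) do so. Ciart was alone among the 9 in holding 3 E-boxes in 1 window. The related E'-box CACGTT was found in windows of Nr1d1 and Cry1 and of 5.44% of all genes.

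The D-box TTATGTAA, to which DBP, TEF and HLF bind as activators and NFIL3 as a repressor, occurred in 1.11% of all genes and in 1 of the 9 clock genes, Per3, which held 2 copies (chr4:151044796-151044890, reverse strand). The other form searched, TTACGTAA, was in 0.126% of all genes and in none of the 9. The core AGGTCA, read by the ROR and NR1D receptors, was found in windows of Per1, Arntl and Nr1d2 and of 18.1% of all genes, and the Nr1d2 run is shown (chr14:18239158-18239203, reverse strand). Capitals mark the D-boxes of Per3 and the AGGTCA core of Nr1d2.
Per3: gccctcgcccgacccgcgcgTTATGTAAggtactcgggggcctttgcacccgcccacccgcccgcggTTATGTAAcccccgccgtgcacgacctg
Nr1d2: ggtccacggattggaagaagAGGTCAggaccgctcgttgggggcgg
The cyclic AMP element TGACGTCA occurred in 2.03% of all genes and in none of the 9. The dioxin response core GCGTG, the letters AhR binds, occurred in windows of 8 of the 9, all but Arntl, against 35.2% of all genes. No matches of different motifs overlapped in the clock gene windows. These matches describe letters in a window and not binding.

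The libraries held between 11695887 and 22180274 reads assigned to genes, so 3 counts, the limit a count of 0 allows, lay between 0.139 and 0.266 CPM, the counts of a gene relative to the library total after TMM scaling. Libraries of the same dose differed by more than sampling noise, with a chi-square of 10.3 to 45.2 per gene. AhR targets answered the dose: Cyp1a1, the classic target, was between 18.9 and 27.5 CPM in vehicle and between 2600 and 3250 CPM at 30 µg/kg. Enterocyte markers were high in every library (Vil1 between 3030 and 4470 CPM), whereas the ileal markers were near absent. Fabp6, the ileal bile acid binding protein, lay between 0 and 0.306 CPM outside the 3 µg/kg group and between 22.9 and 38.3 CPM within it. Slc10a2, the ileal bile acid transporter, reached 2.68 CPM outside that group and 16.4 CPM within it, so the label of ileum is not matched by these markers in 3 of the 4 groups.

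Arntl (ENSMUSG00000055116, chr7:113207465-113314126, forward strand), the activator of the loop that cycles most, had 2 levels within every dose. It was measured at 62.1, 5.92 and 7.35 CPM in vehicle replicates 1 to 3, at 5.50, 42.2 and 42.8 CPM at 3 µg/kg, at 6.40, 51.7 and 64.4 CPM at 10 µg/kg and at 7.19, 8.70 and 43.6 CPM at 30 µg/kg. No library lay between 8.70 and 42.2 CPM, 6 lay below that gap and 6 above it, and every dose had libraries on both sides. Its log2 change against vehicle was 0.28 (95% interval -1.94 to 2.50) at 3 µg/kg, 0.71 (-1.51 to 2.93) at 10 µg/kg and -0.32 (-2.56 to 1.93) at 30 µg/kg.

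Dbp (ENSMUSG00000059824, chr7:45705088-45710203, forward strand), a D-box activator driven directly by ARNTL and one of the strongest cycling outputs of the clock, had the opposite pattern. It stood at 1.07, 120 and 86.3 CPM in vehicle, at 90.8, 3.38 and 1.64 CPM at 3 µg/kg, at 64.3, 1.16 and 0.979 CPM at 10 µg/kg and at 46.1, 28.9 and 2.73 CPM at 30 µg/kg, each in the order of replicates 1 to 3. The lowest value rested on 16 reads and the highest on 2605, a ratio of 123 in CPM. The 6 libraries low in Arntl were the 6 high in Dbp, and in all 12 pairs of libraries of the same dose the library with more Dbp had less Arntl. The ratio of Dbp to Arntl in CPM ran from 0.0152 (replicate 3 of 10 µg/kg) to 20.4 (vehicle replicate 2). It was above 3 in 6 libraries and at most 0.0801 in the other 6. Of the 6 libraries high in Dbp, both at 30 µg/kg (46.1 and 28.9 CPM) were lower than the other 4, an order read from the values and not tested.

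**Figure D1:**
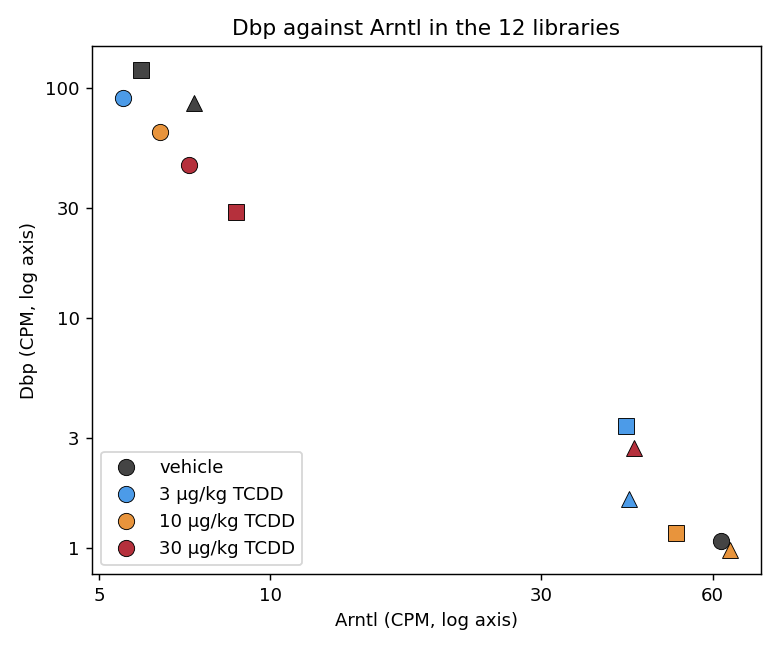
Dbp (vertical) against Arntl (horizontal) in CPM, both on log axes, with 1 point for each of the 12 libraries, coloured by dose (circle, square and triangle mark replicates 1, 2 and 3). The points form 2 clusters with every dose in both: Dbp between 28.9 and 120 CPM with Arntl at 5.50 to 8.70 CPM, and Dbp between 0.979 and 3.38 CPM with Arntl at 42.2 to 64.4 CPM.

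Tef (ENSMUSG00000022389, chr15:81802421-81826863, forward strand) encodes another D-box activator of the family of Dbp. Its levels were 13.0, 158 and 155 CPM in vehicle, 160, 21.3 and 18.7 CPM at 3 µg/kg, 131, 19.4 and 13.2 CPM at 10 µg/kg and 110, 99.7 and 30.5 CPM at 30 µg/kg. Tef fell into the same 6 high and 6 low libraries as Dbp, with none between 30.5 and 99.7 CPM, and kept the order of Dbp in 12 of 12 pairs of the same dose. Its vehicle mean of 109 ± 82.9 CPM (SD, n = 3) and its mean of 80.2 ± 43.4 CPM at 30 µg/kg differed by less than either SD.

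The Period genes, the repressors that accumulate through the day, differed in how far apart the libraries were. Per3 (ENSMUSG00000028957, chr4:151003652-151044665, reverse strand) was widest, at 4.96, 90.9 and 110 CPM in vehicle, 96.9, 6.71 and 5.57 CPM at 3 µg/kg, 76.9, 6.16 and 4.10 CPM at 10 µg/kg and 58.5, 67.5 and 7.82 CPM at 30 µg/kg. Per2 (ENSMUSG00000055866, chr1:91415982-91459324, reverse strand) was at 17.1, 97.7 and 108 CPM in vehicle, 123, 13.9 and 12.6 CPM at 3 µg/kg, 100, 17.8 and 11.8 CPM at 10 µg/kg and 118, 126 and 26.7 CPM at 30 µg/kg. Per2 and Per3 split into the same libraries as Dbp, 6 high and 6 low. Per1 (ENSMUSG00000020893, chr11:69095217-69109960, forward strand), which also responds to acute signals such as glucocorticoids and cyclic AMP, was at 41.7, 109 and 104 CPM in vehicle, 110, 30.6 and 34.0 CPM at 3 µg/kg, 84.4, 45.2 and 38.1 CPM at 10 µg/kg and 112, 119 and 66.3 CPM at 30 µg/kg. Per1 had a narrower range, and replicate 3 of 30 µg/kg, low in Dbp, sat at 66.3 CPM, above all other Dbp-low libraries. Each Period gene had the order of Dbp in 10 of the 12 pairs. At 30 µg/kg the log2 changes were 0.22 (-0.84 to 1.28) for Per1, 0.28 (-1.86 to 2.41) for Per2 and -0.63 (-3.42 to 2.16) for Per3, all with intervals across 0.

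Ciart (ENSMUSG00000038550, chr3:95878503-95882251, reverse strand), a repressor of the ARNTL pair also called CHRONO, was the least abundant of the 10. It was at 0.282, 8.41 and 8.29 CPM in vehicle, 5.95, 0.350 and 0.293 CPM at 3 µg/kg, 4.75, 0.362 and 0.184 CPM at 10 µg/kg and 4.79, 3.91 and 0.437 CPM at 30 µg/kg. The 6 low libraries had 3 to 8 reads each, with replicate 3 of 10 µg/kg at the limit of 3, whereas the 6 high libraries had 44 to 182. They were the same 6 libraries as for Dbp, in the same order in 12 of 12 pairs of the same dose.

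Cry1 (ENSMUSG00000020038, chr10:85131700-85185064, reverse strand) encodes a repressor that also stabilises the PER proteins and peaks later than the Per genes. Its values did not split the 12 libraries in this way. Cry1 was measured at 23.7, 19.1 and 19.4 CPM in vehicle, 23.0, 20.5 and 22.3 CPM at 3 µg/kg, 19.1, 26.7 and 24.7 CPM at 10 µg/kg and 16.2, 15.5 and 17.2 CPM at 30 µg/kg. The 3 libraries at 30 µg/kg lay below all 9 others. The order of Dbp was kept in 4 of 12 pairs and reversed in 8. Pearson r, with values centred on the mean of each dose, was -0.71 with Dbp and 0.67 with Arntl. In vehicle and at 10 and 30 µg/kg the libraries high in Arntl were the higher in Cry1, but not at 3 µg/kg. The difference at 30 µg/kg was -0.34 on the log2 scale (SE 0.13, 95% interval -0.63 to -0.06), or 0.648 to 0.961 of vehicle. It had an unadjusted p of 0.0225 and an edgeR Benjamini-Hochberg adjusted p of 0.152 over all genes, and was not called.

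Nr1d1 and Nr1d2 encode REV-ERB alpha and beta, the heme-binding repressors of Arntl. Nr1d2 (ENSMUSG00000021775, chr14:18204054-18239127, reverse strand) was at 19.1, 133 and 132 CPM in vehicle, 139, 33.9 and 34.1 CPM at 3 µg/kg, 127, 20.9 and 25.2 CPM at 10 µg/kg and 93.1, 67.9 and 33.8 CPM at 30 µg/kg. It split into the same high and low libraries as Dbp. Nr1d1 (ENSMUSG00000020889, chr11:98767932-98775333, reverse strand) was at 60.2, 187 and 132 CPM in vehicle, 115, 69.9 and 68.4 CPM at 3 µg/kg, 127, 43.0 and 44.8 CPM at 10 µg/kg and 113, 67.2 and 115 CPM at 30 µg/kg. Nr1d1 departed from Dbp at the highest dose: replicate 3, low in Dbp, had 115 CPM of Nr1d1, whereas replicate 2, high in Dbp, had 67.2 CPM. At the other doses its order matched the split by Dbp. Nr1d1 shares 263 nt of exon sequence with Thra on the opposite strand, and Dbp shares 539 nt with Sphk2. The counting is not stated to use strand. Thra lay between 82.9 and 127 CPM and Sphk2 between 68.8 and 96.2 CPM over the 12 libraries, neither with a split like that of Dbp.

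**Figure D2:**
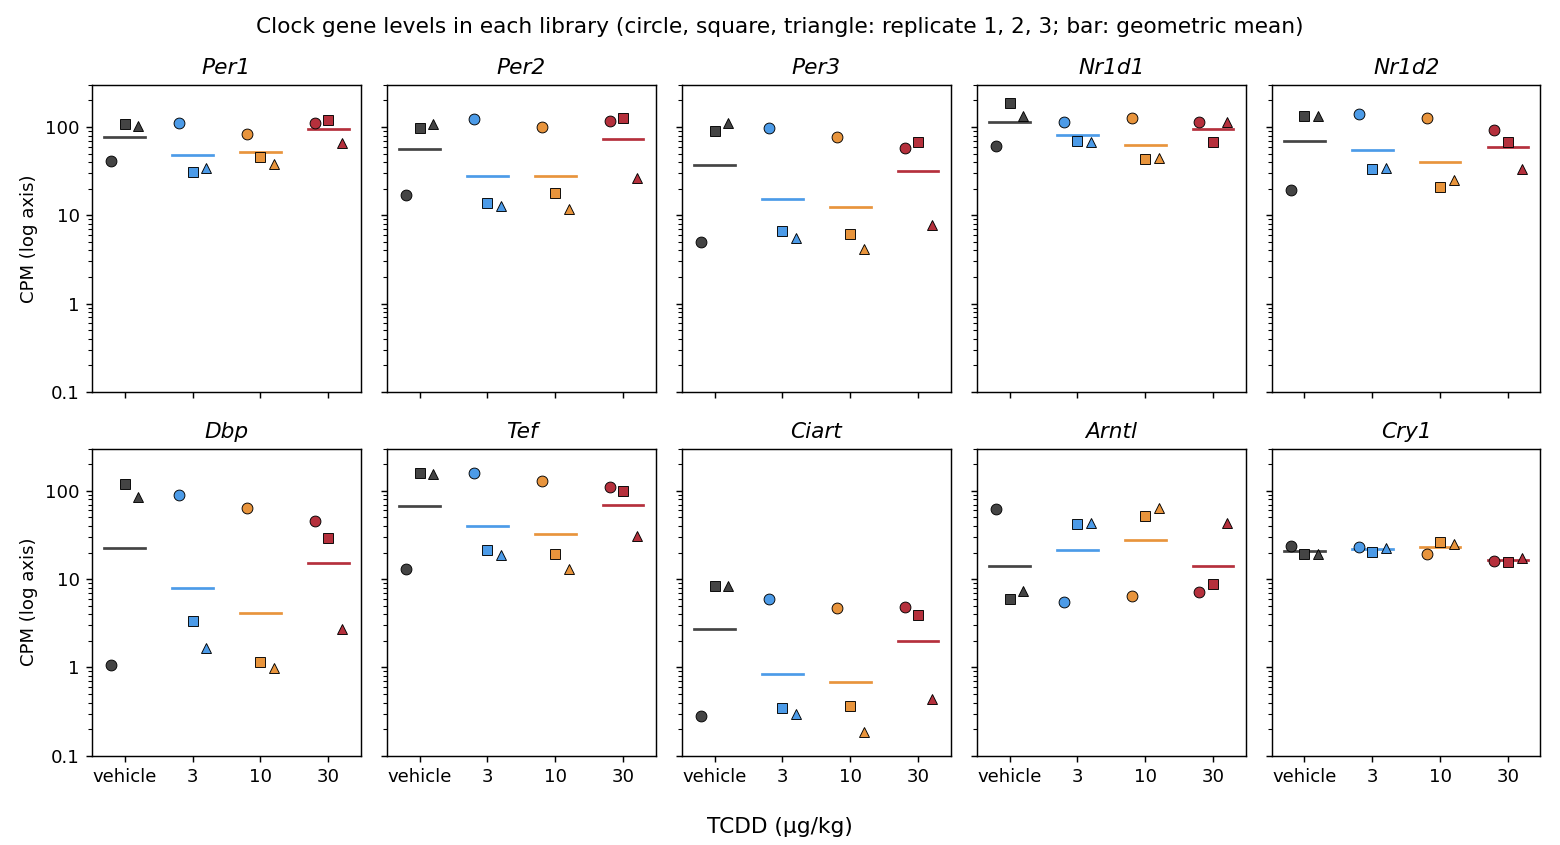
CPM of the 10 clock genes (log axis, the same in every panel) in each library by dose of TCDD, with circle, square and triangle for replicates 1, 2 and 3 and a bar at the geometric mean of the 3. Dbp, Tef, Ciart, Per2, Per3 and Nr1d2 separate 6 high from 6 low libraries within every dose, Arntl does so in the opposite direction, and Cry1 stays between 15.5 and 26.7 CPM.

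Per kilobase of exon, the median level over the 12 libraries was highest for Nr1d1 (29.7 CPM per kb), followed by Per1 (13.4), Per2 (10.6), Nr1d2 (9.43) and Tef (8.27). Cry1 (5.96), Dbp (5.40), Per3 (3.45), Arntl (3.38) and Ciart (0.960) followed. The ranges of neighbours in this order overlapped over the 12 libraries, and medians of genes with 2 clusters of values lie in the gap between them. Overlapping ranges do not compare genes within a library. Nr1d1 was above Per1 in every library, and they were closest in replicate 2 of 30 µg/kg (21.8 against 21.2 CPM per kb). The order was not tested.

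The spread between libraries of the same dose placed most of these genes at the far end of all genes tested. The SD of log2 CPM within doses (8 residual degrees of freedom) was 3.11 for Dbp, rank 1 of 15823, 2.21 for Per3 (rank 6) and 2.17 for Ciart (rank 7). Arntl followed at 1.71 (rank 27), Tef at 1.69 (rank 28), Per2 at 1.57 (rank 40) and Nr1d2 at 1.28 (rank 82). Per1, at 0.75, lay just above the 95th percentile of all genes (0.72) and Nr1d1, at 0.68, just below it. Cry1, at 0.16, was below the median of all genes (0.24). In all, 8 of the 10 clock genes exceeded that percentile, and the median SD of the 10 was 1.63. A median of 86.8% of the sum of squares of the 10 genes lay within doses, against 61.3% for all genes tested, from 32.2% for Cry1 to 93.2% for Nr1d2. These values are a description, given with no test.

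**Figure D3:**
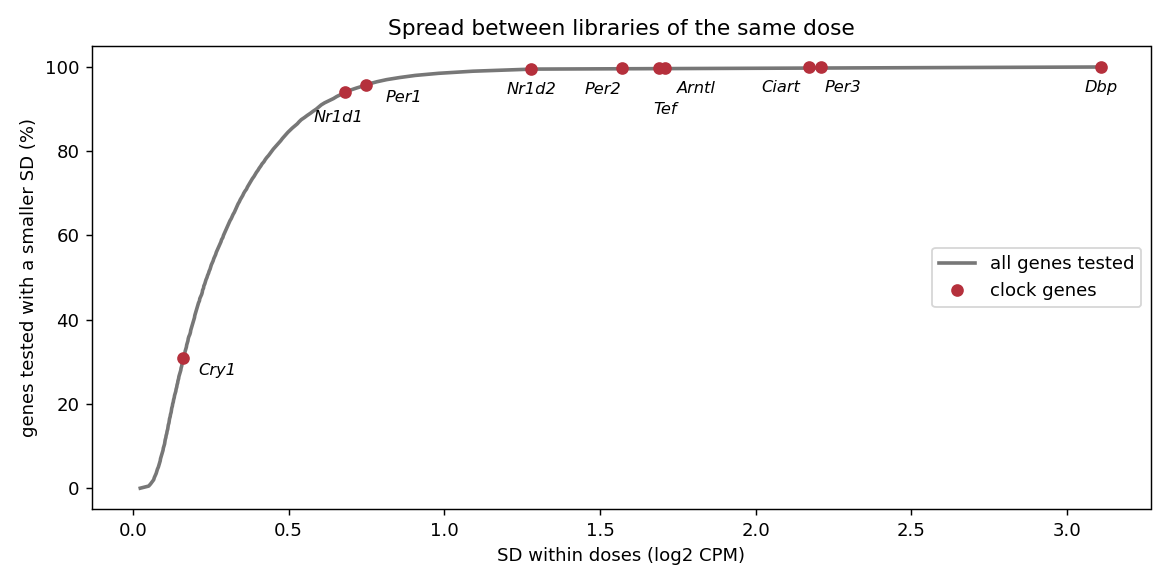
Percent of the 15823 genes tested with a smaller SD (vertical) against the SD of log2 CPM between libraries of the same dose (horizontal), with the 10 clock genes as points on the curve of all genes. Dbp is at the right end (3.11), 8 of the 10 lie above 0.72, the 95th percentile, and Cry1 (0.16) lies on the lower part of the curve.

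Between doses, none of the 10 clock genes was called in any comparison. A call needed an edgeR quasi-likelihood adjusted p under 0.05 and, for a change, at least 1.5-fold. At 3 µg/kg 0 of 10 were called against 0.228% of all genes tested, at 10 µg/kg 0 against 0.613% and at 30 µg/kg 0 against 3.97%. The slope over the rank of dose called 0 of 10 (3.29% of all genes), and the test for any difference between groups called 0 (6.78%). At an unadjusted p under 0.05 the edgeR fit counted 0, 0, 1, 0 and 1 of the 10 in these comparisons, and the gene was Cry1 in both. The shares of all genes tested were 11.4%, 15.9%, 21.6%, 19.7% and 24.0%. DESeq2 likewise called 0 of 10 in the first 4 comparisons, and 1, Cry1 (adjusted p 0.0376), in the test of any difference. Without replicate 1 of 10 µg/kg, edgeR also called Cry1 there (adjusted p 0.0324).

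Counts of genes whose 3 treated and 3 vehicle values did not overlap gave the same picture. None of the 10 was without overlap at 3 µg/kg (15.4% of all genes tested), none at 10 µg/kg (22.9%) and 1, Cry1, at 30 µg/kg (26.8%). The fitted log2 change was below 0 for 8 of the 10 at each dose, with medians of -0.59, -0.80 and -0.40, where 49.7%, 51.4% and 52.2% of all genes were below 0 with medians of 0.00, -0.01 and -0.02. The 3 comparisons share the vehicle libraries. In vehicle and at 30 µg/kg 2 of 3 libraries were high in Dbp, and at 3 and 10 µg/kg 1 of 3, and the part of this in the changes was not tested.

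The intervals show what 3 libraries a group could resolve. For Dbp the log2 change at 30 µg/kg was -1.42 with a 95% interval of -4.95 to 2.10, that is, from 0.0324 to 4.30 times vehicle. For Nr1d2 it was -0.54 (-2.29 to 1.20), for Tef -0.44 (-2.68 to 1.80), for Ciart -0.92 (-3.53 to 1.70) and for Nr1d1 -0.36 (-1.33 to 0.61). At 10 µg/kg Dbp had a change of -1.66 (-5.23 to 1.91) and Per3 of -1.25 (-4.09 to 1.59). Only the interval of Cry1 at 30 µg/kg lay to one side of 0. The missed calls therefore do not show that dose left these genes alike.

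**Figure D4:**
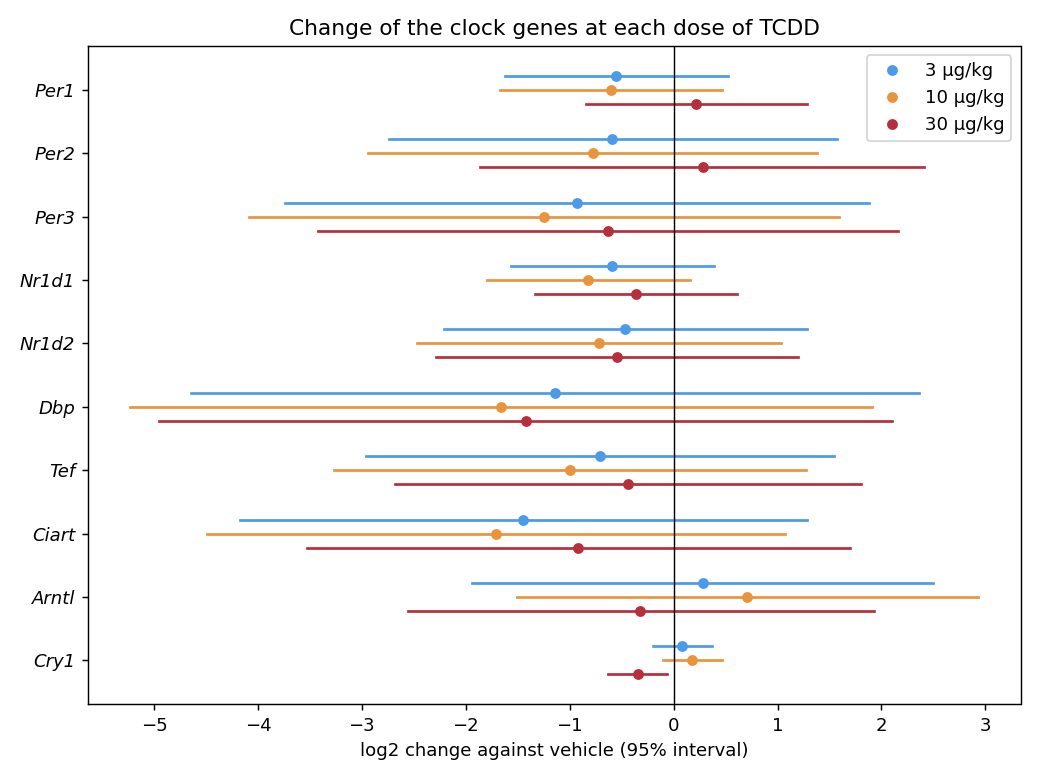
Log2 change of each clock gene against vehicle (horizontal) at 3, 10 and 30 µg/kg TCDD, with points for the edgeR estimate and lines for its 95% interval, 3 libraries a group. Every interval spans 0 except that of Cry1 at 30 µg/kg (-0.63 to -0.06), and that of Dbp at 30 µg/kg runs from -4.95 to 2.10.

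Among 19 further clock genes, all tested, 30 µg/kg gave 2 calls, 1 up and 1 down, against 3.97% of all genes tested. Neither 3 nor 10 µg/kg gave any (0.228% and 0.613% of all genes tested). Timeless, which in mammals acts mainly at the replication fork, was at 4.56, 5.59 and 4.99 CPM in vehicle and 8.98, 8.79 and 7.71 CPM at 30 µg/kg, and rose by 0.75 on the log2 scale (SE 0.19; edgeR adjusted p 0.0348). Bhlhe41, an E-box repressor also called DEC2, was at 0.394, 1.94 and 1.84 CPM in vehicle and 0.357, 0.0888 and 0.109 CPM at 30 µg/kg. It fell by 2.77 on the log2 scale (SE 0.73; edgeR adjusted p 0.0441), with 7, 1 and 2 reads in the libraries of the highest dose, so the fitted value depends on the prior count. It was also lower over the rank of dose (-2.40, edgeR adjusted p 0.0473), on the same few reads. With 1 library left out, edgeR kept this slope call only without vehicle replicate 1 (adjusted p 0.0156) or replicate 1 of 10 µg/kg (adjusted p 0.0247). With limma-voom the slope was not called. Both calls at 30 µg/kg were lost without vehicle replicate 2, vehicle replicate 3 or any 1 of the 30 µg/kg libraries, and in the fit with the index sequence as a covariate. That of Bhlhe41 was also lost with limma-voom and with only the groups compared, and the gene was not tested where at least 10 counts were required in every sample. Left-out libraries that cost 1 of the calls were vehicle replicate 1 for Timeless, and replicates 2 and 3 of 3 µg/kg and replicate 2 of 10 µg/kg for Bhlhe41.

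Among these genes the D-box pair divided in the way Dbp and Arntl did. Hlf, the third activator of the family, was at 2.48, 28.3 and 37.2 CPM in vehicle, 38.3, 2.10 and 1.11 CPM at 3 µg/kg, 22.6, 1.59 and 0.612 CPM at 10 µg/kg and 22.2, 34.4 and 3.39 CPM at 30 µg/kg. Nfil3, the D-box repressor, was at 25.4, 2.54 and 2.62 CPM in vehicle, 2.94, 17.3 and 16.0 CPM at 3 µg/kg, 1.65, 16.1 and 15.3 CPM at 10 µg/kg and 2.24, 4.35 and 11.5 CPM at 30 µg/kg. Hlf was high where Dbp was high, in the same 6 libraries, and Nfil3 was high in the other 6. Npas2, the partner of ARNTL that can replace CLOCK, sided with Arntl, from 38.2 to 70.0 CPM in the Dbp-high libraries and from 81.5 to 120 CPM in the others. Clock itself varied little, from 108 to 155 CPM, with an SD within doses of 0.14. Within this small range it had the order opposite to Dbp in 10 of 12 pairs of the same dose. The library highest in Clock was the one lowest in Dbp at 3 of 4 doses. By dose, Clock was at 114 to 128 CPM in vehicle and 132 to 155, 115 to 152 and 108 to 113 CPM at 3, 10 and 30 µg/kg. The ranges at 3 and 30 µg/kg did not overlap vehicle, as for 15.4% and 26.8% of all genes tested. The edgeR test of any difference did not call Clock. DESeq2 called it there (adjusted p 0.0414), as did edgeR without replicate 1 of 10 µg/kg (adjusted p 0.0298).

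Within doses, 5 of the 19 were above the 95th percentile of spread: Hlf (SD 2.30), Nfil3 (1.59), Usp2 (0.90), Bhlhe41 (0.84) and Npas2 (0.76). The median of the 19 was 0.41. Usp2, a deubiquitinase with a clock-driven transcript, Cry2, the second cryptochrome, and Noct, a cycling phosphatase, each kept the order of Dbp in 10 of 12 pairs of libraries. Bhlhe40, the partner of Bhlhe41, kept it in 9. The kinases that mark PER for decay had small spreads, 0.08 for Csnk1d and 0.20 for Csnk1e, as did their ligase subunit Btrc at 0.11. Csnk1d nevertheless kept the order of Dbp in 12 of 12 pairs. These pairs share libraries, and a gene with the same 2 clusters as Dbp has its order in every pair that joins them. Such counts were not made over all genes tested, so they are a description throughout. Rora, Rorb, Arntl2 and Fbxl21 were low, none above 6.78 CPM, and followed the order of Dbp in 6, 8, 6 and 7 of 12 pairs.

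**Figure D5:**
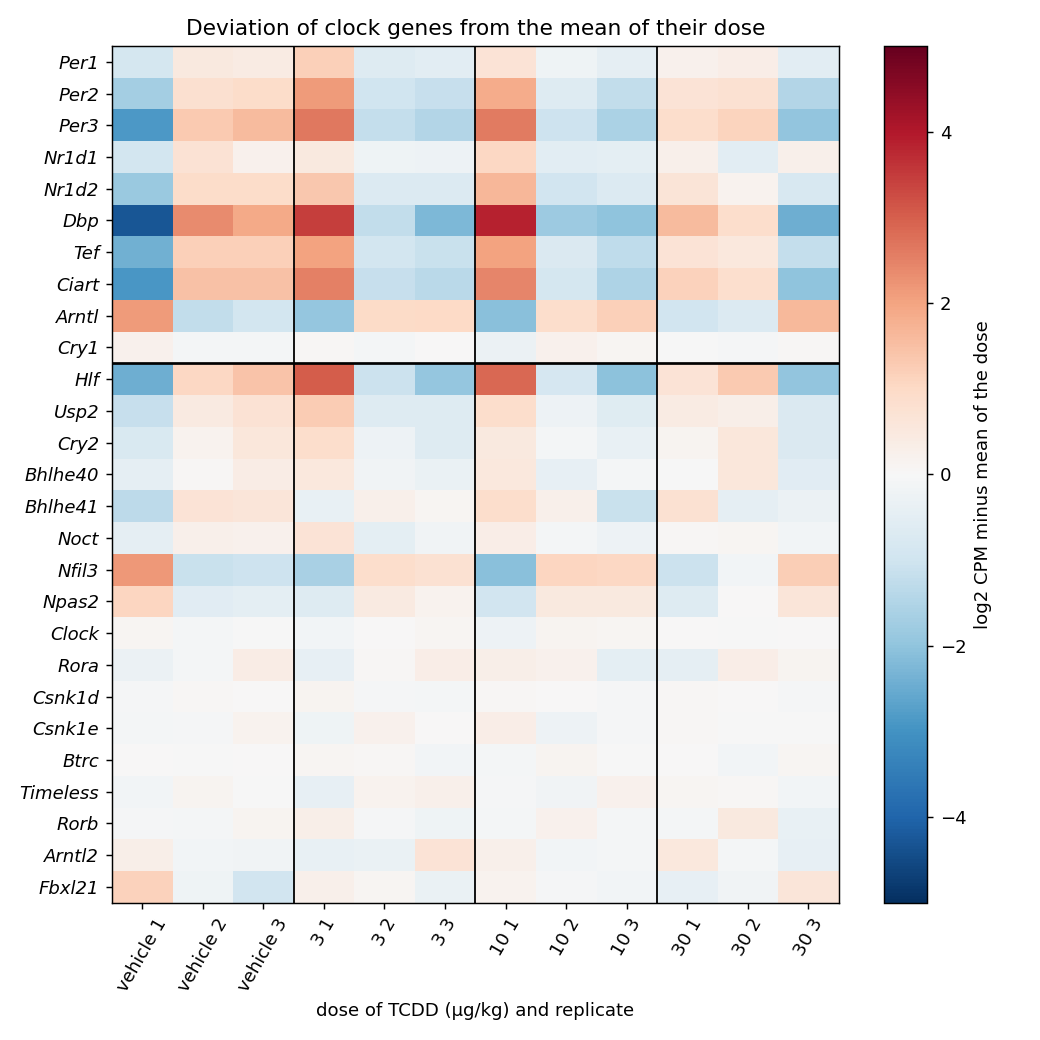
Log2 CPM of the 10 clock genes (above the line) and further clock genes (below it) in each library, minus the mean of the 3 libraries of that dose; red is above and blue below the mean. Vehicle replicate 1, replicates 2 and 3 of 3 and 10 µg/kg and replicate 3 of 30 µg/kg are blue for Dbp, Tef, Ciart, the Per genes and Hlf and red for Arntl, Nfil3 and Npas2.

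The genes closest to Dbp by Pearson r over the 12 libraries, each centred on the mean of its dose, were Bmp2k, Nat8f5, Stk17b, Sgk3, Cipc, Tns4, Slc2a5 and Slc4a7, with r from 0.993 to 0.985. Those closest to Arntl were Pnp2, Gm49342, Tut7, Dab1, Ypel2, Myo10, Ier5 and 4932438A13Rik, with r from 0.997 to 0.989. The 12 values fall into 2 clusters, so r mainly says that a gene has the same clusters, and it is given as a description among 3450 candidates. Cipc encodes a CLOCK-interacting repressor and ran from 17.7 to 57.4 CPM. Sgk3 was lower at 30 µg/kg (log2 change -1.34, edgeR adjusted p 0.0362) and kept the order of Dbp in 12 of 12 pairs.

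Intestinal transporters with a known daily rhythm moved with the clock genes within doses, and 3 of 6 were above the 95th percentile of spread. Abcb1a, the drug efflux pump P-glycoprotein, was at 110, 537 and 609 CPM in vehicle, 639, 116 and 116 CPM at 3 µg/kg, 622, 114 and 161 CPM at 10 µg/kg and 491, 483 and 159 CPM at 30 µg/kg. Slc9a3, the apical sodium-hydrogen exchanger, was at 459, 138 and 158 CPM in vehicle, 162, 267 and 346 CPM at 3 µg/kg, 143, 379 and 417 CPM at 10 µg/kg and 131, 125 and 279 CPM at 30 µg/kg. Abcb1a was high in the Dbp-high libraries and Slc9a3 in the Arntl-high libraries, with no overlap between the 2 kinds in either gene. Slc2a5, the fructose carrier, lay between 228 and 291 CPM in the former and between 86.1 and 145 CPM in the latter. The glucose carrier Slc5a1, the hexose carrier Slc2a2 and the peptide carrier Slc15a1 had the order of Dbp in 10, 9 and 11 of 12 pairs. None of the 6 was called at 3, 10 or 30 µg/kg, where 0.228%, 0.613% and 3.97% of all genes tested were.

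Output genes of the clock outside the loop were mixed. Wee1, the mitotic kinase with E-boxes in its promoter, had an SD within doses of 0.89, from 5.35 to 8.34 CPM in Dbp-low and 16.7 to 20.0 CPM in Dbp-high libraries. Ppara, a lipid-sensing receptor, had an SD of 0.72. The 11 output genes tested gave 2 calls at 30 µg/kg, both upward, where 3.97% of all genes tested were called. Alas1, the first enzyme of heme synthesis, rose by 0.75 on the log2 scale (SE 0.12, edgeR adjusted p 0.00223). Ppard rose by 0.61 (SE 0.16, edgeR adjusted p 0.0410). Alas1 had an SD within doses of 0.15 and the order of Dbp in 7 of 12 pairs. Cdkn1a was called in the test of any difference (edgeR adjusted p 0.0137) with a change of 0.56 at 30 µg/kg, under 1.5-fold.

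Other measures were set beside the split. The summed AhR targets Cyp1a1, Cyp1b1, Ahrr, Tiparp and Nqo1, between 77.8 and 3520 CPM, had the order of Dbp in 11 of 12 pairs of the same dose. Cyp1a1 alone reached 3250 CPM of this sum. Singly, Cyp1a1 had that order in 10 pairs, Nqo1 in 9, Cyp1b1 and Tiparp in 8 each and Ahrr in 6. The summed enterocyte markers (9 of 9 present in every library) lay between 19800 and 28800 CPM and had it in 7 pairs, but singly they ranged from 5 pairs for Cdx2 to 12 of 12 for Vil1. Krt20 had it in 11, Epcam and Cdh17 in 10, Fabp2 in 9, Apoa1 in 8, Alpi in 7 and Apoa4 in 6. In Vil1, Krt20, Epcam and Cdh17 the highest library was the one highest in Dbp at 4 of 4 doses. Smooth muscle markers, all 6 present in every library, varied widely within doses, between 13.6 and 179 CPM in sum, but had the order of Dbp in 4 pairs. Those of B and plasma cells, between 68.8 and 308 CPM, had it in 7. The total of reads had it in 7 pairs, the share of reads with no feature in 5 and the share not uniquely aligned in 4. Each dose had 1 library of each of 3 index sequences, and of the 4 libraries of each index 3, 2 and 1 were high in Dbp. The part of any of these in the clock values was not tested. The study's methods place dosing at the start of the light phase and collection within its opening hours, but no time is given for each library, so time of collection within that span cannot be told apart from the library. In scrapings, fewer cells of a type and less RNA per cell cannot be told apart either.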

How the data were processed

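Total RNA from scrapings of the proximal ileal epithelium was sequenced in 12 libraries, 3 for each of 4 doses. The authors deposited 1 file a library with unnormalized counts for each Ensembl gene. The submitters' processing notes name FastQC 0.11.3, Trimmomatic 0.33, TopHat2 2.1.0, SAMtools 1.2.0, HTSeq 0.6.1 and DESeq, with build GRCm38. The annotation release and the strand setting are not given in the sources used here. Lines without a gene were left out of library sizes: 25.0 to 30.1% of reads had no feature, 31.4 to 38.8% were not unique and 0.414 to 0.728% were ambiguous.

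Symbols, positions and exon lengths came from GENCODE M21, which held 45229 of the 46078 identifiers. Counts were fitted with edgeR 4.0.16 (TMM, filterByExpr, quasi-likelihood, all 4 groups, Benjamini-Hochberg over 15823 genes), as each dose against vehicle, as a slope over dose rank (given as the change from rank 0 to 3) and as any difference. Calls needed an adjusted p under 0.05 and, except for any difference, 1.5-fold. Intervals are 95%. Log2 CPM used a prior count of 2. DESeq2 1.42.0 and limma 3.58.1 (voom) were alternatives, in R 4.3.3, beside other scalings, filters, a length and GC correction, the index sequence as a covariate and each library left out. The fit was tested on simulated counts. Values of some list genes are not reported here.

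The study chose genes by posterior probability and fold, which counts alone do not give, so edgeR was used. The clock genes, the further clock genes and the lists of clock outputs, transporters, glucocorticoid-responsive, immediate early and fasting-responsive genes, AhR targets, AhR partners and cell type markers were chosen with earlier results of these data known. Named were all clock genes, list genes that were called or had an SD within doses above the 95th percentile, the AhR targets, and the 8 genes most like Dbp and Arntl (mean count of at least 50, SD above the median). Intervals and limits of 3 counts cover counting error or the spread between libraries only.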

Additional observations from a re-analysis of the deposited data

How the results depend on the processing

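Over 22 alternatives a comparison, the 30 log2 changes of the 10 clock genes at 3 doses gave 657 values, of which 642 kept their direction and none changed a call. With the index sequence as a covariate, Per2 turned to -0.36 at 30 µg/kg and Arntl to -0.25 at 3 µg/kg. With limma-voom, Arntl turned to 0.13 and Tef to 0.00 (its sign crossing 0) at 30 µg/kg. Leaving out 1 library gave -0.09 to 0.45 for Per1, -0.18 to 0.71 for Per2, -1.66 to 1.60 for Arntl and -0.69 to 0.04 for Nr1d1 at 30 µg/kg, and -0.21 to 2.19 for Arntl at 3 µg/kg. The cause was not tested. The test of any difference called 1 clock gene, Cry1, with DESeq2 and 0 to 1 with a library left out. Of the further clock genes, DESeq2 called Clock (above), Bhlhe41 (adjusted p 0.0365) and Timeless (adjusted p 0.0299) in that test. There edgeR also called Bhlhe41 without vehicle replicate 1 (adjusted p 0.0403) and Timeless without replicate 1 of 3 µg/kg (adjusted p 0.0253). The further clock genes called at 30 µg/kg were 1 (Timeless) with at least 10 counts in every sample, with limma-voom and with only the groups compared, 0 with the index sequence, and 0 to 2 with a library left out: Bhlhe41 alone without vehicle replicate 1, Timeless alone without replicate 2 or 3 of 3 µg/kg or replicate 2 of 10 µg/kg, and none without vehicle replicate 2 or 3 or any library of 30 µg/kg. The median SD within doses of the clock genes stayed within 1.5 times its value under every alternative run for it. No paired analysis was possible because the labels give no replicate numbers (those used here follow accession order). The index sequence in the file names occurs once in each dose, so the fit with it, above, is a blocked fit by index. Depth limits Ciart and Bhlhe41, with libraries at or under 3 counts.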

Other observations

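Of 9 glucocorticoid-responsive genes tested, 2 were called higher at 10 and at 30 µg/kg, where 0.613% and 3.97% of all genes tested were called. These were the metallothioneins Mt1 and Mt2, metal-binding proteins that also answer metals and stress. Mt1 rose by 1.28 at 10 µg/kg (edgeR adjusted p 0.0469) and 2.11 at 30 µg/kg (edgeR adjusted p 4.89e-04) on the log2 scale, and Mt2 by 1.90 (edgeR adjusted p 0.0100) and 2.57 (edgeR adjusted p 3.00e-04). Fkbp5, a co-chaperone of the glucocorticoid receptor, had an SD within doses of 0.89, the order of Dbp in 10 of 12 pairs and a change of 1.06 at 30 µg/kg (edgeR adjusted p 0.308). Zbtb16, another such target, had an SD of 1.18 and its highest value, 78.8 CPM, in replicate 2 of 30 µg/kg. Of the 8 immediate early genes none was called, and Fosb alone was above the 95th percentile of spread, with 26.7 CPM in replicate 2 of 3 µg/kg and at most 14.3 CPM elsewhere. Of the 7 fasting-responsive genes tested, none was called at a single dose. At 30 µg/kg Pdk4 was at 13.3, 103 and 82.0 CPM and Angptl4 at 38.3, 118 and 113 CPM in replicates 1 to 3. Both genes were above the 95th percentile of spread.

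Of the AhR targets, Cyp1a1, Cyp1b1 and Ahrr were called higher at 10 and 30 µg/kg and Tiparp at 30 µg/kg (by 1.38, edgeR adjusted p 1.06e-04). Nqo1 changed by 0.47 at 30 µg/kg and was not called (edgeR adjusted p 0.120). Ahr itself rose over the ranks of dose by 0.59 (edgeR adjusted p 0.0396) and Arnt2 fell by 1.47 (edgeR adjusted p 0.0487), whereas Arnt was not called. Among cell type markers, the genes called higher at 30 µg/kg were Tff3, Agr2 and Spink4 of goblet cells, Lyz1, Mmp7, Ang4, Itln1 and Defa24 of Paneth cells, Chga, Chgb, Cck, Gcg and Sct of enteroendocrine cells, and Ly6g6c and Cd177 of the colon list. The pancreatic markers Pnlip, Ctrb1 and Cela2a were lower at 3 and 30 µg/kg, summing to at most 6.45 CPM with the rest of their list. At 10 µg/kg 3 genes of the colon list were called higher, Car1 and Aqp8 among them. At 3 µg/kg Fabp6 was higher, Slc10a2 was called in the test of any difference, and Cd22 was lower over the rank of dose. No gene of the enterocyte, proliferating, smooth muscle, fibroblast or T cell lists was called. All 6 smooth muscle and 4 of 6 B and plasma cell markers were above the 95th percentile of spread.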
